A study of Mus musculus with 19 samples.

Results

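The 9 genes described here (Cd79a, Cd79b, Cd22, Blnk, Btk, Syk, Lyn, Blk and Sla) encode signalling chains, a coreceptor, kinases and adaptors of the B cell receptor. They were taken by symbol, and all 9 were found among the 21086 genes of the expression table. RNA was measured in 19 lymphomas of Eµ-Myc mice, which carry a Myc transgene under the enhancer of the immunoglobulin heavy chain, active in B cells, so all 4 groups carried the transgene. There were 4 late-onset Bptf+/Δ tumours (HET_late, onset at 30 to 66 weeks), 4 early-onset Bptf+/Δ tumours (HET_early, 8 to 13 weeks), 5 late-onset Bptf+/+ tumours (WT_late, 28 to 76 weeks) and 6 early-onset Bptf+/+ tumours (WT_early, 9 to 17 weeks). Bptf+/Δ mice carried 1 deleted and 1 intact allele of Bptf, which encodes a subunit of the nucleosome remodelling factor NURF. Values are normalised read counts, which are gene counts divided by 1 size factor per library.

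The B cell receptor is a membrane immunoglobulin bound to a pair of signalling chains, CD79A (Igα) and CD79B (Igβ). When antigen gathers receptors, Src family kinases such as LYN and BLK phosphorylate tyrosines in the tails of these chains, and the kinase SYK binds there. SYK phosphorylates the adaptor BLNK, on which BTK and phospholipase C gamma meet to start calcium signalling. CD22 and, by way of CBL, the adaptor SLAP (encoded by Sla) lower the signal. In B lineage lymphomas this pathway and its precursor form are known as survival signals.

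Libraries held 8297856 to 12497732 reads, and Bptf itself was lower in every Bptf+/Δ tumour (408 to 1573 normalised reads) than in every wild-type tumour (1665 to 2586). Each library was a separate tumour of flash-frozen tissue, so a lower share of cells of a type and less RNA per cell cannot be told apart. Eef1a1 was the most abundant gene in 16 of 19 libraries. HET_early_2 was led by the cartilage collagen Col2a1 (4.36% of reads), WT_early_6 by the salivary gene Bpifa2 (5.07%) and HET_late_4 by the immunoglobulin gene Igha (5.55%). In HET_early_2 the 14 measured markers of B cell identity summed to 1611, against 15668 to 45962 in the other 18 tumours, while its cartilage markers summed to 897752, against 14.5 to 12496. Results of the genes described here that rest on HET_early_2 are therefore also given without it.

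The promoters of 5 of the 9 genes were found in the RefSeq table (GRCm38.p6), which gives 250 bases before to 50 bases after each start. Cd79a and Btk are shown because their levels ranked together across the tumours (below, rho 0.66) and because both windows hold the same motif. Capitals mark TTCCTC, the reverse complement of GAGGAA, the core bound by the B cell and myeloid factor PU.1.
Cd79a promoter (chr7:24897247-24897546, plus strand): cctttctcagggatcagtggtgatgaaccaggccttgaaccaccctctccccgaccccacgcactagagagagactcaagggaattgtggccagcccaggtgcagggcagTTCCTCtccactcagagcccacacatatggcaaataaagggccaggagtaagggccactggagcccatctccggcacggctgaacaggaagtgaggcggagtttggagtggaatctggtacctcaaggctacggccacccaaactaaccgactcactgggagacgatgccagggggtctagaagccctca
Btk promoter (chrX:134583091-134583390, minus strand): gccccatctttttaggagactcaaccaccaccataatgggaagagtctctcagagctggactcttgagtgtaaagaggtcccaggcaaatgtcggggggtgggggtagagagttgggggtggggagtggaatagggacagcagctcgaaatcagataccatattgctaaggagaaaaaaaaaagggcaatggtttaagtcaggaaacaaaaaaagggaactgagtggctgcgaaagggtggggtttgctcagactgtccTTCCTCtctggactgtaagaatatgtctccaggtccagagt
Searched on both strands, GAGGAA was in 3 of the 6 windows of members, those of Cd79a, Btk and the second Syk start, and in 28.3% of all 32851 promoters of the table. CCCNNGGG, the type bound by EBF1, was in the Cd22 window and in 13.7% of all promoters. The octamer ATTTGCAT was in the Blnk window and in 1.74% of all promoters, and CACGTG, the E-box of MYC and MAX, was in none of the 6 windows and in 7.15% of all. A match describes letters in a window and does not show that a factor binds there.

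By level per length of exon, the signalling chains stood far above the rest. Over all 19 tumours Cd79a averaged 3461 ± 2365 and Cd79b 3320 ± 1239 normalised reads per kb (SD, n = 19). Btk followed with 576 ± 164 per kb, then Syk with 489 ± 215, Cd22 with 421 ± 237, Lyn with 376 ± 165 and Blnk with 333 ± 130. Blk averaged 217 ± 214 per kb, and Sla was the lowest with 72.0 ± 65.3. Only the step between Cd79b and Btk was larger than the larger SD of its pair, and each other pair of neighbours in this order differed by less than that.

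The members were uneven across tumours. On the log2 scale the SD over 19 tumours was 2.23 for Cd79a, 1.92 for Blk, 1.54 for Cd79b, 1.28 for Cd22, 1.12 for Sla, 0.90 for Blnk, 0.78 for Syk, 0.67 for Btk and 0.49 for Lyn. The median over the 9451 genes with a mean of at least 100 was 0.50. Without HET_early_2 the SD of Cd79b was 0.43 and that of Btk 0.28, against a median of 0.43 over all such genes, while Cd79a (1.69), Blk (1.45), Sla (1.12) and Cd22 (0.92) stayed far above it and Syk was at 0.64. Cd79a, Blk, Sla and Cd22 thus varied between the other tumours too. The spread of Cd79b, Btk and Blnk (0.46 without HET_early_2) came largely from 1 library.

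**Figure D1:**
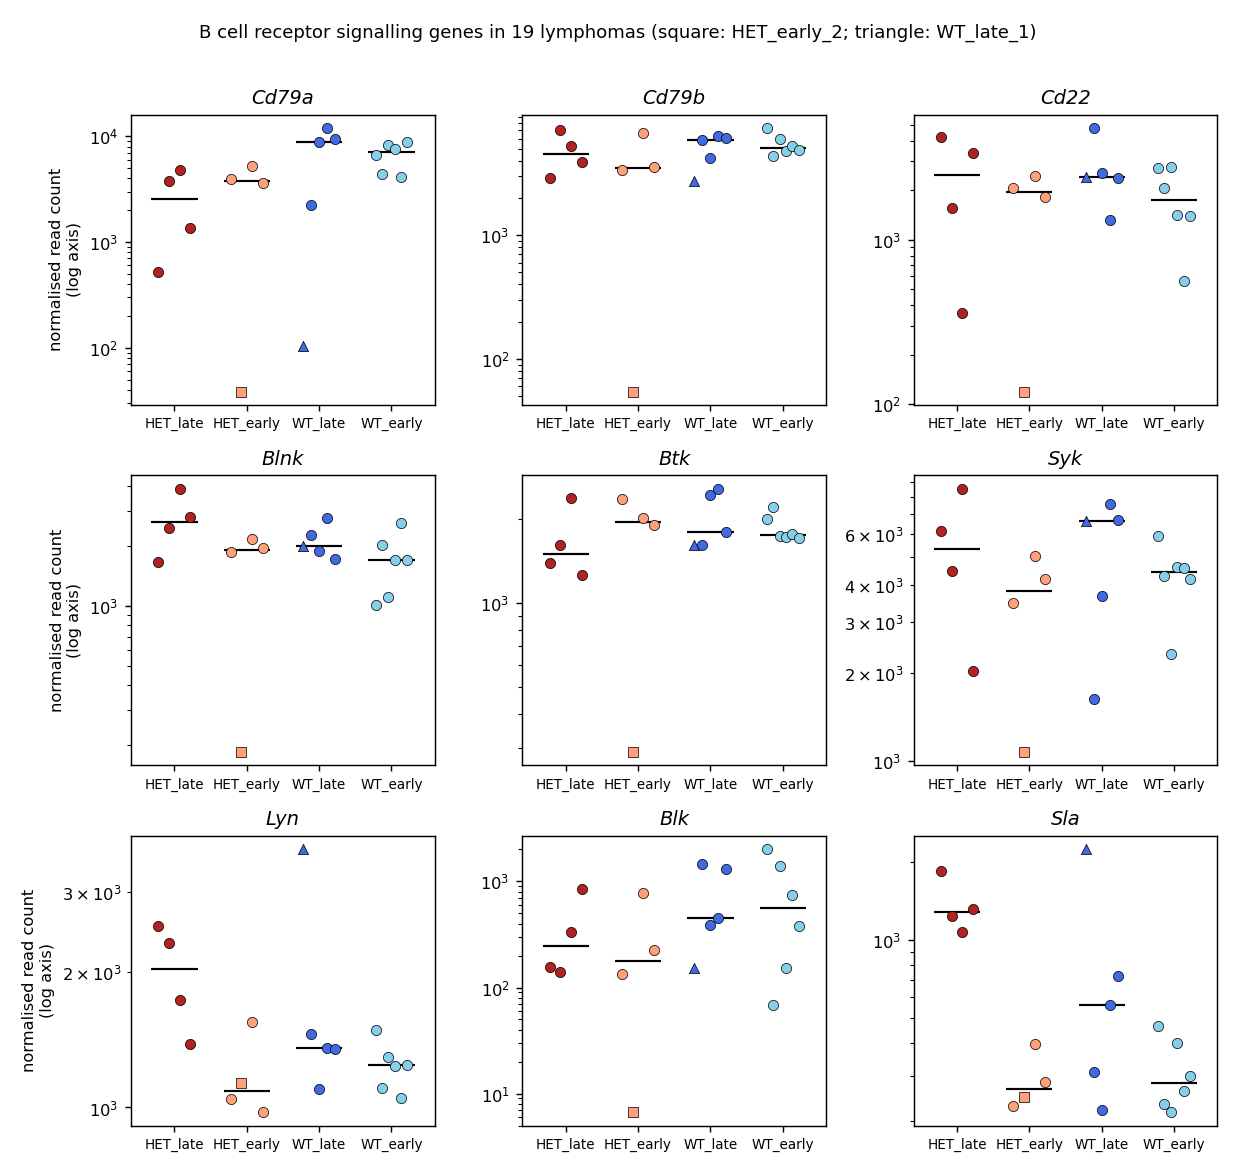
Normalised read counts (log axes, 1 panel per gene) in HET_late, HET_early, WT_late and WT_early tumours, with 1 point per tumour and a bar at each group median. HET_early_2 (square) is the lowest of the 19 tumours for 7 genes but not for Lyn and Sla, WT_late_1 (triangle) is the highest for Lyn and Sla, and the 4 HET_late tumours lie above the 4 HET_early tumours for Sla.

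HET_early_2 had the lowest level of 7 of the 9 genes. Set against the median of the other 18 tumours, it was 119-fold lower for Cd79a, 92.9-fold for Cd79b, 57.9-fold for Blk, 18.6-fold for Cd22 and 10.7-fold for Blnk. Btk was 6.14-fold lower and Syk 4.21-fold lower. Lyn and Sla ranked 6 and 5 from the lowest. The macrophage markers of this library summed to 35729, against 6446 to 42320 in the other 18. Of these markers, Csf1r was at 6668 against 277 to 2008, while Marco was at 1.33 against 8.70 to 844.

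Cd79a, the Igα chain (chr7:24897381-24902197, GRCm38, plus strand), spanned 115-fold across late tumours and, through HET_early_2, 230.0-fold across early tumours. Its normalised counts were 517, 3755, 4794 and 1352 in HET_late tumours and 3958, 38.5, 5283 and 3591 in HET_early tumours. WT_late tumours had 103, 2257, 8868, 11925 and 9501, and WT_early tumours ran from 4089 to 8868 with a median of 7147. Late tumours thus held both the highest levels, in 3 of 5 WT_late tumours, and 4 of the 5 lowest, with HET_early_2 the lowest of all. The groups overlapped in each comparison.

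Cd79b, the Igβ chain (chr11:106311341-106314762, minus strand), was steadier. It had 2902, 7029, 5236 and 3860.4 normalised reads in HET_late tumours, 3358, 54.5, 6616 and 3553 in HET_early tumours, and 2737, 5841, 4230.4, 6316 and 6075 in WT_late tumours. WT_early tumours ran from 4338 to 7301 with a median of 5065. Apart from HET_early_2, every tumour had at least 2737.

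The balance of the signalling chains shifted in single tumours. Cd79a over Cd79b, each per kb of exon, was 0.175, 0.525, 0.899 and 0.344 in HET_late tumours. The ratio was 1.16, 0.695, 0.784 and 0.993 in HET_early tumours and 0.0371, 0.379, 2.06, 1.85 and 1.54 in WT_late tumours. In WT_early tumours it ran from 0.767 to 1.78, with a median of 1.18. In WT_late_1, Cd79b was thus 27.0-fold above Cd79a per kb and Ighm, the µ heavy chain, was at 16809 normalised reads. WT_late_1 and HET_late_1 also had the lowest Cd79b outside HET_early_2 (2737 and 2902, beside a median of 5065 over those 18 tumours), but Cd79a lay much further below its median there (103 and 517, beside 4579). The group medians of the ratio were 0.434 in HET_late, 0.889 in HET_early, 1.54 in WT_late and 1.18 in WT_early tumours, with ranges that overlapped between groups, and the ratio was not tested.

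**Figure D2:**
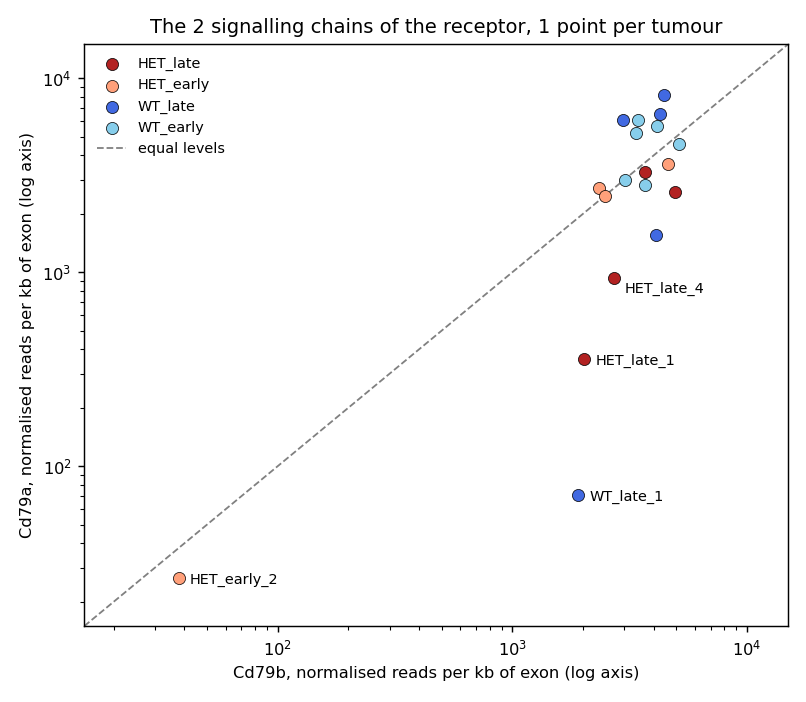
Cd79a against Cd79b, both as normalised reads per kb of exon on log axes, 1 point per tumour, with HET_late, HET_early, WT_late and WT_early tumours in different colours and a dashed line where the levels are equal. WT_late_1 (ratio 0.0371), HET_late_1 (0.175) and HET_late_4 (0.344) lie far below the line, WT_late_1 and HET_late_1 with the lowest Cd79b outside HET_early_2, and HET_early_2 is the lowest for both chains.

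Among the kinases, Syk (chr13:52583173-52648792, plus strand) ranged from 2039 to 8559 normalised reads in HET_late, 1073 to 5020 in HET_early, 1625 to 7598 in WT_late and 2320.2 to 5874 in WT_early tumours. Btk, the Tec family kinase (chrX:134542336-134583570, minus strand), ranged from 1256 to 2393 in HET_late, 291 to 2368 in HET_early, 1617 to 2576 in WT_late and 1713 to 2211 in WT_early tumours. Without HET_early_2 its whole range over 18 tumours was 2.05-fold, the narrowest of the 9 genes. Blk, a Src family kinase largely restricted to B cells (chr14:63372836-63417037, minus strand), ranged from 141 to 843 in HET_late, 6.65 to 779 in HET_early, 151 to 1453 in WT_late and 68.3 to 2013 in WT_early tumours. It was the most uneven member within WT_early tumours, with a 29.5-fold range.

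Lyn (chr4:3678115-3813122, plus strand), the Src family kinase that also phosphorylates inhibitory coreceptors, had 2528, 2319, 1731 and 1385 normalised reads in HET_late tumours and 1047, 1133, 1546 and 975 in HET_early tumours. WT_late tumours had 3734, 1451, 1100.1, 1356 and 1349.8, and WT_early tumours ran from 1052 to 1486 with a median of 1241. The highest value, in WT_late_1, stood apart from the other WT_late tumours, which lay within the range of WT_early tumours.

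Blnk (chr19:40928927-40994535, minus strand), the adaptor that links SYK to BTK and phospholipase C gamma, ranged from 1667 to 3885 in HET_late, 185 to 2182 in HET_early, 1719 to 2769 in WT_late and 1009 to 2622 in WT_early tumours. Cd22, the inhibitory coreceptor (chr7:30865402-30880342, minus strand), ranged from 359 to 4216 in HET_late, 120 to 2453 in HET_early, 1324 to 4765 in WT_late and 565 to 2774 in WT_early tumours. The lowest Cd22 outside HET_early_2 was 359 in HET_late_3, where the B cell marker Ms4a1 was at 3.15 while Blnk (3885) and Syk (8559) were at their highest of all 19 tumours. An antisense gene shares 479 exonic bases with Cd22, and a long noncoding RNA gene on the other strand shares 248 with Lyn, and whether counting used strand was not stated.

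Sla encodes the Src-like adaptor protein SLAP, which with CBL lowers the level of antigen receptors. Its normalised counts were 1843, 1240.1, 1075 and 1311 in HET_late tumours and 229, 247, 398 and 284 in HET_early tumours. WT_late tumours had 2235, 311, 220.5, 563 and 727, and WT_early tumours ran from 216 to 464 with a median of 280.1. Every HET_late tumour lay above every HET_early tumour, as was the case for 3.51% of the 19927 genes tested, and Sla was the only member of which this held in either direction. WT_late and WT_early tumours overlapped, with WT_late_1 the highest of all.

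**Figure D3:**
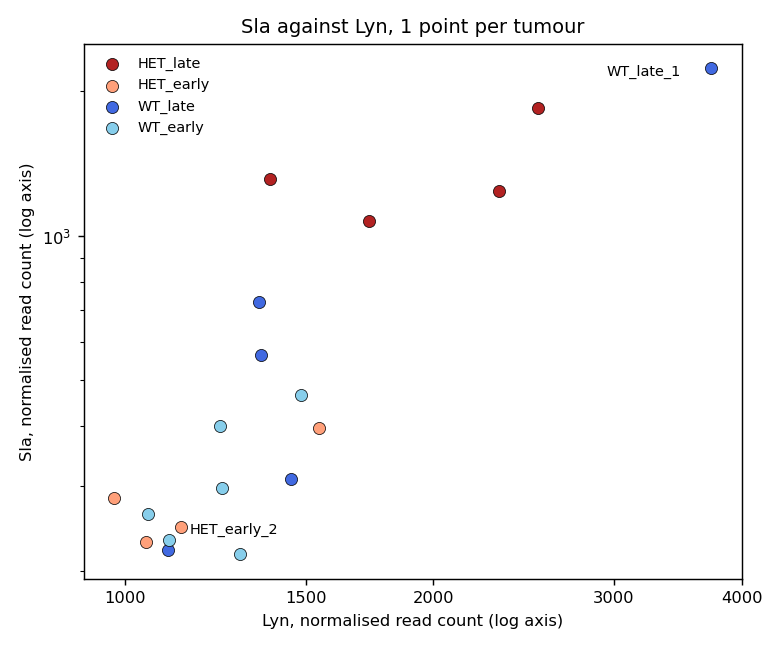
Sla against Lyn as normalised read counts on log axes, 1 point per tumour, coloured by group (HET_late, HET_early, WT_late, WT_early). HET_late tumours and WT_late_1 lie at the top (Sla 1075 to 2235), HET_late_4 (Lyn 1385) within the range of early tumours for Lyn. HET_early_2 lies among the other early tumours.

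The comparison of genotypes asked how losing 1 Bptf allele related to receptor signalling genes. None of the 9 members passed limma's test with Benjamini-Hochberg adjustment over 19927 genes, in which an adjusted p under 0.05 was called. The share of all genes called was 0% for genotype averaged over onset, with 1988 genes at an unadjusted p under 0.05, and none of them was a member. On the recovered reads edgeR called 0 genes and DESeq2 called 26, none of them a member. Differences are on the scale of log2(value + 1), Bptf+/Δ minus wild type.

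The chains and Blk had the largest negative differences. Cd79a averaged 2911 ± 1995 in Bptf+/Δ tumours (SD, n = 8) and 6592 ± 3510 in wild-type tumours (n = 11), a log2 difference of -1.47 ± 0.93 (SE; limma adjusted p = 0.528). Cd79b averaged 4076 ± 2233 in Bptf+/Δ and 5243 ± 1239 in wild-type tumours, with -0.99 ± 0.61 (limma adjusted p = 0.525). Blk averaged 327 ± 313 in Bptf+/Δ and 775 ± 661 in wild-type tumours, with -1.47 ± 0.79 (limma adjusted p = 0.502). These 3 differences shrank without HET_early_2, to -0.63 for Cd79a, -0.21 for Cd79b and -0.81 for Blk. Without WT_late_1 the difference of Cd79a was -2.07 (limma adjusted p = 0.377).

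The other members were nearer 0. Cd22 differed by -0.60 ± 0.55, Btk by -0.41 ± 0.30, Syk by -0.23 ± 0.34 and Blnk by -0.12 ± 0.37, and Lyn by 0.09 ± 0.20 and Sla by 0.57 ± 0.32 (SE; limma adjusted p between 0.510 and 0.906). In all, 7 members were negative and 2 positive, with a median of -0.41, beside a median of 0.06 over all genes tested. Without HET_early_2 the members split 5 negative to 4 positive with a median of -0.06.

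Within early tumours all 9 differences were negative (median -0.54, beside 0.09 over all genes). Only Cd79b had an unadjusted p under 0.05, at -1.88 ± 0.85 (unadjusted p = 0.0396, limma adjusted p = 0.427). Cd79a (-2.28 ± 1.29) and Blk (-1.97 ± 1.09) had larger differences with larger SEs. Again 0% of genes were called by limma, with 2293 at an unadjusted p under 0.05, while edgeR called 0 genes and DESeq2 409, none of them a member. Without HET_early_2 the members split 5 negative to 4 positive, with a median of -0.02, and Cd79b differed by -0.31. Within late tumours 5 members were negative and 4 positive (median -0.10, beside 0.02 over all genes), and 0% of genes were called by limma, with 1222 at an unadjusted p under 0.05, against 0 by edgeR and 32 by DESeq2, none of them a member. Sla, the one member there with an unadjusted p under 0.05, averaged 1367 ± 332 in HET_late (SD, n = 4) and 811 ± 821 in WT_late tumours (n = 5). Its log2 difference was 1.22 ± 0.46 (unadjusted p = 0.0160, limma adjusted p = 0.796), and the groups overlapped through WT_late_1 at 2235.

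**Figure D4:**
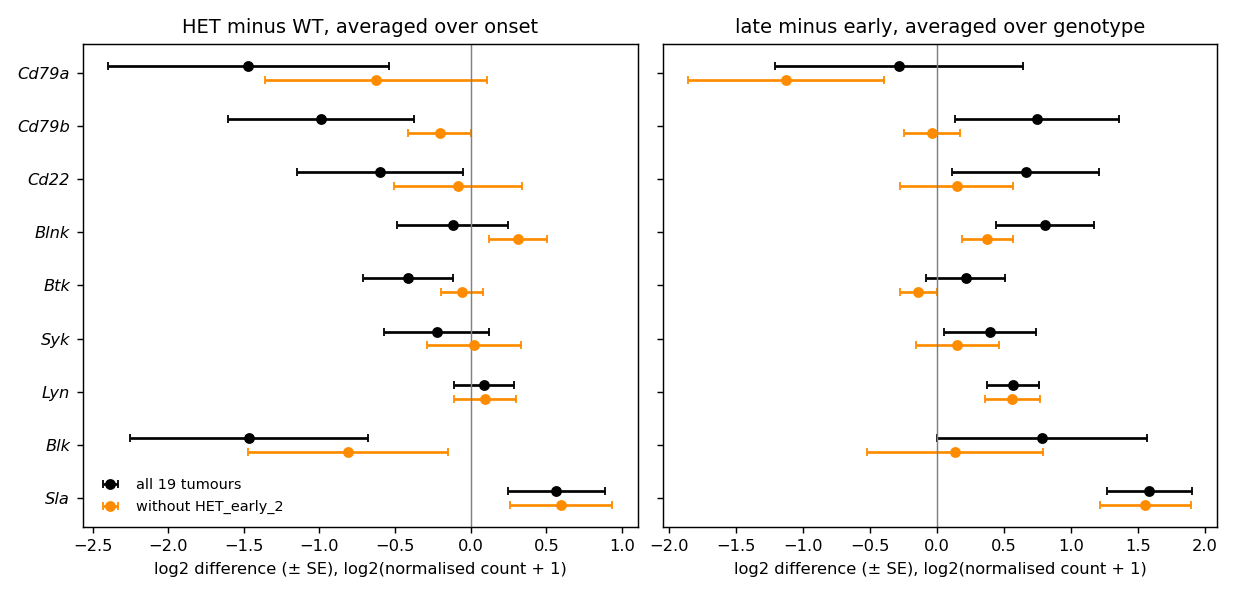
Log2 differences (± SE, limma, on log2(normalised count + 1)) of the 9 genes for Bptf+/Δ minus wild type (left) and late minus early (right), with all 19 tumours (dark) and without HET_early_2 (orange). On the left Cd79b is at -0.99 with all tumours and -0.21 without that one, and on the right it is at 0.75 and -0.04, while Sla is at 1.59 and 1.56.

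Late tumours were compared with early ones because the labels class each tumour by onset. Averaged over genotype, Sla rose in late tumours and was the only member called by limma. It averaged 1058 ± 681 in late tumours (SD, n = 9) and 303 ± 86.8 in early tumours (n = 10), a log2 difference of 1.59 ± 0.32 (SE; limma adjusted p = 0.0406), where 87 of all genes, or 0.437%, were called. On the recovered reads edgeR gave 1.82 (adjusted p = 0.0334; 2.70% of genes called) and DESeq2 1.81 (adjusted p = 5.95e-05; 9.42% called). The size held when any 1 tumour was left out (1.34 to 1.76), but the adjusted p ran from 0.0120 to 0.0933, and Sla passed without HET_late_1, HET_late_3, HET_early_2, HET_early_3, WT_late_3 or WT_late_5 and missed the threshold without any of the other 13. Without WT_late_1, its highest tumour, the log2 difference was 1.34 (limma adjusted p = 0.0590).

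Markers of other cells were set beside Sla, and their relation to it was not tested. T cell markers summed to 2902 to 10096 in HET_late, 2013 to 2597 in HET_early, 756 to 8947 in WT_late and 359 to 3180 in WT_early tumours. In some tumours Cd4 and Cd8b1 made up most of this sum, so it does not follow the T cell receptor genes. In WT_late_1 they were at 5375 and 2411 of 8947, with Cd3e at 7.38. In HET_late_4, by contrast, Cd4 was at 379 of 4148, with Cd3e at 105. Macrophage markers summed to 6758 to 35840 in HET_late, 11105 to 35729 in HET_early, 8086 to 42320 in WT_late and 6446 to 14648 in WT_early tumours. No marker of either list was at 0 in every tumour of a group. In HET_late_3, with Sla at 1075, macrophage markers summed to 6758 and T cell markers to 2902, above each HET_early tumour. Of the T cell receptor genes in that tumour, Cd3e was at 0.787 and Cd247 at 1496, its highest of 19 tumours. In HET_early_2, with a macrophage sum of 35729, Sla was at 247, and in WT_late_2, with the highest Cd3e (131), it was at 311. With a score of T cell, macrophage, stromal and endothelial markers as a covariate the difference was 1.59 (limma adjusted p = 0.0265), and with a B cell identity score it was also 1.59 (adjusted p = 0.0226).

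Sla lies on chromosome 15 (chr15:66780819-66831829, GRCm38), as does Myc. The median log2 level of 424 genes of that chromosome, set against all tumours, was 0.26 in HET_late_1, 0.38 in WT_late_1, 0.54 in WT_late_5 and 0.35 in WT_early_5, and between -0.33 and 0.04 in the other 15. With this median as a covariate, Sla differed by 1.19 between late and early tumours (limma adjusted p = 0.105), so the call was lost, and 0 genes were called in that fit. In the 3 HET_late tumours whose chromosome 15 median was at or below 0.04, Sla was at 1075, 1240.1 and 1311, above all early tumours. Sla lies within Tg, which is on the other strand and shares no exonic base with it, and Tg averaged 27.2 normalised reads.

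Lyn and Blnk had unadjusted p-values under 0.05 for onset, as did 3785 of all genes (18.99%), and were not called by limma. Lyn averaged 1884 ± 842 in late tumours (SD, n = 9) and 1212 ± 189 in early tumours (n = 10), a log2 difference of 0.57 ± 0.20 (unadjusted p = 0.0091, limma adjusted p = 0.137). The edgeR adjusted p was 0.0769 and that of DESeq2 0.0330, so DESeq2 called Lyn, as it did 9.42% of all genes. Blnk averaged 2387 ± 704 in late and 1638 ± 696 in early tumours, with 0.81 ± 0.37 (unadjusted p = 0.0407, limma adjusted p = 0.242), and its difference was 0.38 without HET_early_2. Cd79b (0.75 ± 0.61), Cd22 (0.66 ± 0.55), Blk (0.79 ± 0.79), Syk (0.40 ± 0.34), Btk (0.21 ± 0.30) and Cd79a (-0.29 ± 0.93) had limma adjusted p between 0.523 and 0.895. Thus 8 members were positive and 1 negative, with a median of 0.66 beside -0.08 over all genes, and without HET_early_2 the split was 6 to 3 with a median of 0.15.

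Within Bptf+/Δ tumours the onset difference of Sla was 2.24 ± 0.49 (SE, limma adjusted p = 0.0575), with means of 1367 ± 332 in HET_late and 289 ± 75.6 in HET_early tumours (SD, n = 4 each). Limma called 0% of genes in this comparison, with 3887 at an unadjusted p under 0.05, and edgeR called 0% with Sla at 2.27 (adjusted p = 0.0585). DESeq2 called 8.80% of genes, with Sla at 2.24 (adjusted p = 0.00189). In the authors' deposited table, where 4.32% of the genes with an adjusted p were called, Sla stood at 2.44 on the log2 scale (adjusted p = 1.37e-09) and Lyn at 0.94 (adjusted p = 0.116). Limma, edgeR and DESeq2 therefore differed on whether Sla passed, at nearly the same size. Other members stood further apart between the deposited values and DESeq2, with Cd79b at 1.03 against 0.49 and Blk at 1.59 against 0.37. The deposited values of all 9 members, with Cd79a at 0.044, lay close to the log2 ratio of group means taken without HET_early_3. Which tumours the authors used was not stated, so the deposited values are not a comparison of tools alone. Lyn differed by 0.74 ± 0.30 (limma adjusted p = 0.186) and Blnk by 1.23 ± 0.56 (adjusted p = 0.233). All 9 differences were positive (median 0.74, beside -0.12 over all genes), against 5 positive and 4 negative without HET_early_2 (median 0.07).

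Within wild-type tumours Sla differed by 0.94 ± 0.42 (unadjusted p = 0.0365, limma adjusted p = 0.961) and by 0.45 without WT_late_1. Lyn differed by 0.39 ± 0.25 (limma adjusted p = 0.961) and by 0.09 without WT_late_1. In the authors' deposited table Sla stood at 1.39 (adjusted p = 0.148). Limma called 0% of genes, with 966 at an unadjusted p under 0.05, against 0 by edgeR and 121 by DESeq2, none of them a member. Of the members 7 were positive and 2 negative, with a median of 0.29 beside -0.02 over all genes.

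Whether the onset difference itself differed between genotypes was tested as an interaction. For Sla it was 1.30 ± 0.64 (SE; unadjusted p = 0.0554, limma adjusted p = 0.729), so a difference between genotypes was not shown. Limma called 0% of genes, with 1382 at an unadjusted p under 0.05 and no member among them, against 0 by edgeR and 96 by DESeq2, none of them a member. All 9 interaction values were positive with a median of 0.85, beside -0.07 over all genes, and without HET_early_2 they split 4 positive to 5 negative with a median of -0.01.

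The wider pathway was read from 67 other genes in 5 lists, chosen with earlier results of these data known, and all 67 were tested. Limma called none of them in any of the 7 comparisons. For onset averaged over genotype edgeR called 7 (5 higher, 2 lower), where it called 2.70% of all genes, and DESeq2 16 (14 higher, 2 lower), where it called 9.42%. In that comparison 20 of the 67 had an unadjusted p under 0.05, as did 18.99% of all genes. The 67 split 43 positive to 24 negative with a median of 0.16, while 44.0% of all genes were positive, with a median of -0.08. Receptor and coreceptor genes split 8 to 3 with a median of 0.76, adaptors and exchange factors 12 to 5 with 0.50, and kinases and phosphatases 11 to 4 with 0.05. Calcium and transcription genes split 8 to 6 with 0.04, and precursor receptor and immunoglobulin genes 4 to 6 with -0.57.

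The smallest p among positive onset differences belonged to Ptpn22, a phosphatase that dampens antigen receptor signalling. It averaged 652 ± 342 in HET_late, 143 ± 18.3 in HET_early, 199 ± 67.8 in WT_late and 122 ± 104 in WT_early tumours (SD), with a log2 difference of 1.48 ± 0.37 (limma adjusted p = 0.0681). Next came Rac2, a GTPase of blood cells (1.004 ± 0.275, adjusted p = 0.0798), and Dapp1, an adaptor that binds phosphoinositides in B cells (0.66 ± 0.18, adjusted p = 0.0830). On the negative side stood Nr4a1, an early response gene of receptor signalling (-1.52 ± 0.43, adjusted p = 0.0862), the exchange factor Vav3 (-1.04 ± 0.38, adjusted p = 0.156) and Igll1, a surrogate light chain gene of the precursor receptor. Igll1 averaged 0.197 in HET_late, 278 in HET_early, 9.38 in WT_late and 669 in WT_early tumours. Its group SDs in early tumours exceeded its means, and limma's adjusted p was 0.206. For Nr4a1 the SD exceeded the mean in HET_early tumours (470 ± 618) but not in the other groups.

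For genotype the 67 genes split 32 positive to 35 negative with a median of -0.04. The smallest p among positive differences were those of Ptpn22 (1.07 ± 0.37), the Src family kinase Fgr (0.999 ± 0.420) and Nr4a1 (0.96 ± 0.43). Among negative ones they included those of Pag1, a membrane adaptor that recruits the inhibitory kinase CSK (-0.92 ± 0.39), and the NF-kappaB subunit Rel (-0.37 ± 0.19). Limma's adjusted p was 0.493 for Ptpn22, Fgr, Nr4a1 and Pag1 and 0.499 for Rel, so none was called. Nr4a1 averaged 470 ± 618 in HET_early tumours (SD), so its SD exceeded its mean there.

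Members were compared pair by pair, and with a B cell identity score, across tumours (45 relations, log2 values, 100000 permutations each, Benjamini-Hochberg adjustment). The adjusted p for Spearman's rho was under 0.05 for 3 relations and that for Pearson's r for 11. Lyn and Sla had r = 0.86 (permutation p = 1e-05, the smallest these permutations can give, adjusted 0.00045) and rho = 0.80 (permutation p = 8e-05, adjusted 0.0036). Without HET_late_1 and WT_late_1, the tumours farthest from the median of Lyn, r was 0.76. Among late tumours r was 0.80 and rho 0.80 (exact permutation p = 0.00916 for r, adjusted 0.0687; n = 9), and among early tumours r was 0.67 and rho 0.43 (permutation p = 0.0366 for r, adjusted 0.111; n = 10). Within Bptf+/Δ tumours r was 0.86 (exact permutation p = 0.0115, adjusted 0.104; n = 8), and within wild-type tumours it was 0.89 (permutation p = 0.00291, adjusted 0.131; n = 11). So the relation had the same sign in all 4 subsets and did not pass adjustment in any of them.

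Blk and the B cell identity score had r = 0.83 and rho = 0.69 (permutation p = 0.00145, adjusted 0.0326), and r was 0.63 without HET_early_2 and WT_early_2. Cd79a and Btk had r = 0.78 and rho = 0.66 (permutation p = 0.00304, adjusted 0.0456), and r was 0.63 without HET_early_2 and WT_late_1. Cd79a and Btk had rho = 0.80 among late tumours and -0.21 among early tumours, so the pooled relation was not seen within early tumours. Cd79a and Cd79b had r = 0.79 (permutation p = 2e-05, adjusted 0.00045) and rho = 0.60 (adjusted 0.0628), and r was 0.35 once HET_early_2, HET_late_1 and WT_late_1 were all left out. Without HET_early_2 only Lyn and Sla passed by rho (0.80, adjusted 0.0099) and 6 relations passed by r.

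**Figure D5:**
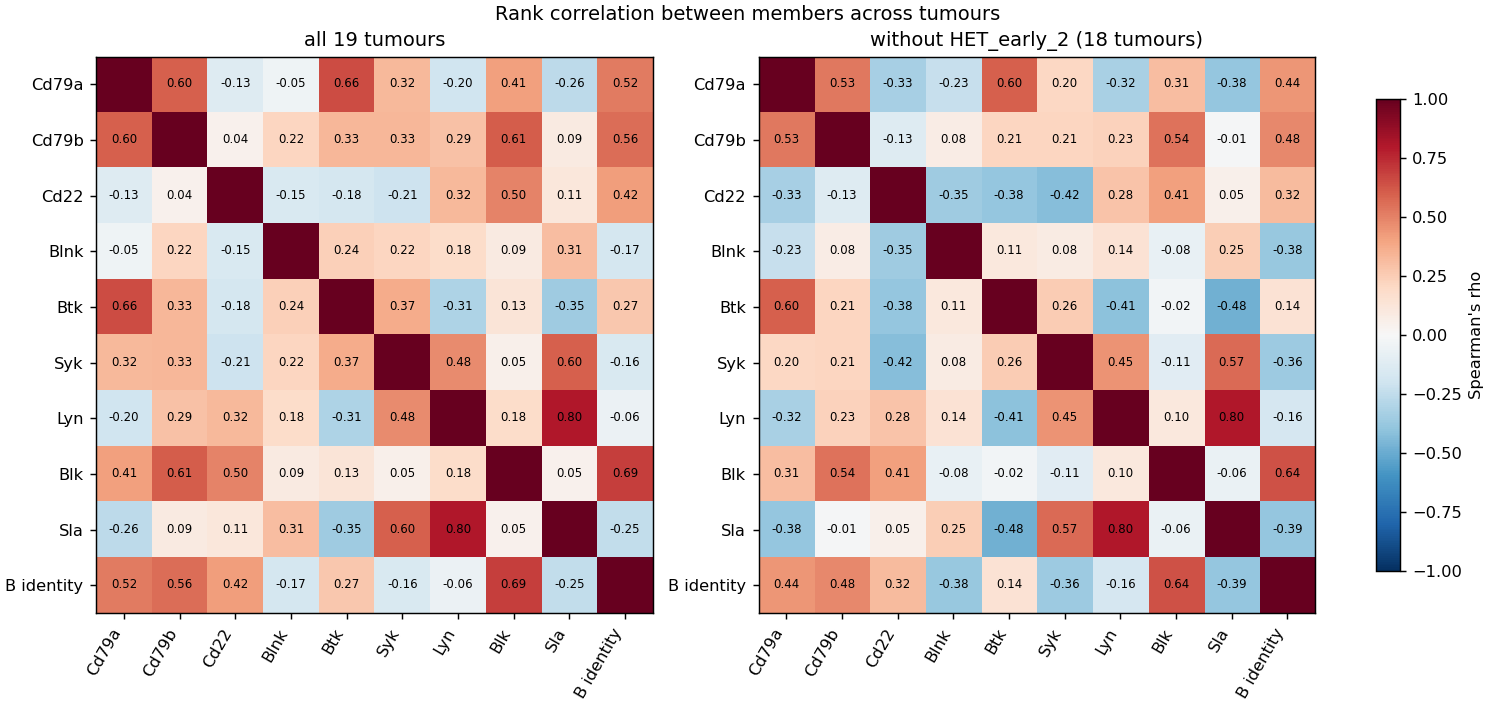
Spearman's rho between the 9 genes and a B cell identity score (the mean z score of B cell markers) across all 19 tumours (left) and without HET_early_2 (right), from -1 in blue to 1 in red. Lyn and Sla hold rho = 0.80 in both panels, and Cd79a and Btk have 0.66 on the left and 0.60 on the right.

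The genes whose ranks over the 19 tumours were most like those of each member were taken from 9426 genes with a mean of at least 100, and are given as a description without a test. For Sla these were Orai3 (rho 0.91), a calcium channel subunit, Rgs14 (0.88) and Cdpf1 (0.87), and for Lyn Faap20 (0.96), Anapc11 (0.92) and Ubl3 (0.88). For Cd79a they were Gpd1l (0.89), Med26 (0.87) and Dazap1 (0.86), and for Cd79b Raly (0.89), Polr2j (0.88) and Elp6 (0.86). Cd22 ranked with Ccdc50 (0.86), Slc4a8 (0.85) and Btla (0.84), the last an inhibitory receptor of lymphocytes, and Blnk with Pex16 (0.78), Dnajc15 (0.75) and Psmd9 (0.75). Btk ranked with Hmgn5 (0.93), which is also encoded on the X chromosome, Ino80c (0.91) and Surf6 (0.90), Syk with Anapc5 (0.87) and Slc25a17 (0.81), and Blk with Iqcb1 (0.88), Zfp12 (0.85) and Jakmip1 (0.81). Each of these kept a rho of at least 0.70 without HET_early_2. Orai3 had 528, 673, 450.0 and 400.5 normalised reads in HET_late and 280.3, 335, 344 and 253 in HET_early tumours. Every HET_late tumour thus lay above every HET_early tumour for it too, as for 3.51% of the genes tested. WT_late_1, the highest for Sla, was also the highest for Orai3 (713). Orai3 was picked for ranks like those of Sla, so this likeness adds no separate evidence.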

How the data were processed

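Polyadenylated RNA of 19 lymphomas was sequenced on a Genome Analyzer IIx from TruSeq libraries, per the labels' protocols, with 10 or 8 amplification cycles by protocol version. No source names the version used for a given library, and values within a version could therefore not be made. The submitters' processing notes name Cuffdiff, Cuffnorm, Cufflinks 2.2.1, TopHat2 2.1.1 and FastQC 0.11.5, with the builds GRCm38 and mm10, without saying which made which file. The exons deleted in Bptf are not stated there or in the labels.

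The authors deposited a normalised signal for 21086 genes per library, in which each gene's count had been divided by the size factor of its library. Whole reads were recovered from it, since 100% of values fell within 0.01 reads of a whole number. The authors also deposited log2 fold changes and adjusted p-values for 5 comparisons, whose direction was read from Bptf as Bptf+/Δ over wild type and late over early, and which are named as theirs. Spreadsheet software had turned 23 gene names into dates, and 2 names were repeated.

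The 19927 genes that reached a value of 1 in 4 or more libraries were tested on the log2(value + 1) scale, using limma 3.58.1 in R 4.3.3 with a trend and empirical Bayes moderation, in 1 model of 4 group means, for 7 comparisons, with Benjamini-Hochberg adjustment and a threshold of 0.05. This scale understates changes of weakly expressed genes. Alternatives were edgeR 4.0.16 (quasi-likelihood) and DESeq2 1.42.0 on the recovered reads, other settings, covariates, and leaving out each tumour. The fits were tested on simulated counts. Exonic lengths came from GENCODE M21. Python 3.11.15 with pandas 2.3.3, NumPy 2.4.6 and SciPy 1.17.1 was used elsewhere.

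The members and gene lists were chosen with earlier results of these data known. All members were named, as were up to 3 pathway genes with the smallest p in each direction of a comparison described, and the 3 genes ranked most like each member, with predicted genes passed over. Some genes that these rules take are not reported here. Amplified reads can repeat a molecule, and counting error is therefore the least error a value has.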

Additional observations from a re-analysis of the deposited data

Results flagged for a closer look

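In 36 groups of members and libraries, 3 single tumours stood apart from their group by Dixon's criterion, which chance meets in about 1 of 20 groups. Blnk in HET_early_2 was at 184.8 normalised reads, against 1873 to 2182 in the other HET_early tumours (n = 4). Lyn in WT_late_1 was at 3734, against 1100.1 to 1451 in the other WT_late tumours (n = 5). Sla in WT_late_1 was at 2235, against 220.5 to 727 in the other WT_late tumours. So 2 of the 3 values came from the same tumour.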

How the results depend on the processing

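No paired analysis was possible because replicate numbers were given in accession order and pair no tumours. Of 805 values of single members under the alternatives, 753 kept their direction and their side of the threshold, 25 changed sign, 17 lost a call and 10 gained one. All sign changes were in members that were not called. For genotype, the non-tumour score as a covariate gave 0.29 for Cd79a, 0.19 for Cd79b, 0.39 for Blnk, 0.22 for Btk and 0.36 for Syk, and array weights gave 0.034 for Cd22 and 0.245 for Blnk. Blnk was also at 0.11 with edgeR and with DESeq2 and 0.24 with the B identity score. Without the 3 libraries led by another gene, genotype gave 0.30 for Blnk and 0.22 for Syk, and without HET_early_2 it gave 0.31 for Blnk and 0.019 for Syk. For onset, those 3 libraries left out gave -0.013 for Cd79b, -0.040 for Cd22, -0.092 for Btk and -0.15 for Blk, and leaving out HET_early_2 gave -0.038 for Cd79b and -0.14 for Btk. Array weights gave -0.068 for Btk, and log2 weeks of onset -0.071 for Syk per doubling. Cd79a was at 0.025 without HET_late_1, 0.050 without HET_early_3 and 0.32 without WT_late_1. With each tumour left out in turn, the ranges were -0.28 to 0.31 for Blnk and -0.41 to 0.019 for Syk by genotype, and -1.13 to 0.32 for Cd79a, -0.038 to 1.11 for Cd79b and -0.14 to 0.36 for Btk by onset. The cause was not tested.

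Sla in late against early tumours was called in 14 of 31 alternatives, with adjusted p between 5.95e-05 and 0.191. Members called were 2 with DESeq2 and 0 with log2 weeks, the Y-linked mean, the chromosome 15 median or without the 3 libraries, and 0 to 1 when 1 tumour was left out. In Bptf+/Δ tumours 1 member was called with quantile normalisation, array weights, DESeq2, only the 2 groups compared, the B identity score or the non-tumour score, and 0 to 1 with a tumour left out. The count of all genes called for onset was 667 with array weights, 539 with edgeR, 1878 with DESeq2, 8 with log2 weeks, 600 with the B identity score, 556 with the non-tumour score, 0 with the Y-linked mean, the chromosome 15 median or without the 3 libraries, and 0 to 490 with a tumour left out. In Bptf+/Δ tumours it was 59 with quantile normalisation, 191 with array weights, 1754 with DESeq2, 21 with only the 2 groups, 221 with the B identity score, 210 with the non-tumour score and 0 to 257 with a tumour left out. In wild-type tumours it was 121 with DESeq2. For genotype it was 26 with DESeq2, in early tumours 110 with array weights, 409 with DESeq2 and 0 to 2 with a tumour left out, in late tumours 32 with DESeq2 and 0 to 2 with a tumour left out, and for the interaction 96 with DESeq2.

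Listed pathway genes called for onset were 2 with array weights, 7 with edgeR, 16 with DESeq2, 4 with the B identity score, 2 with the non-tumour score and 0 to 5 with a tumour left out. In Bptf+/Δ tumours they were 7 with DESeq2, 1 with the non-tumour score and 0 to 1 with a tumour left out, in wild-type tumours 4 with DESeq2, for genotype in early tumours 3 with DESeq2 and for the interaction 1 with DESeq2. By rho, 1 relation between members passed without HET_early_2, a setting chosen after seeing the data, against 3 with all tumours. Depth limited Blk in HET_early_2, at 6.65 normalised reads, more than any other member in any tumour.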

Other observations

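In 3 late tumours a B cell gene was low while others were not. Pou2af1, a B cell coactivator, had 93.2 normalised reads in HET_late_1, 216 in HET_late_2 and 4.61 in WT_late_1, against 4847 to 9952 in the other 16 tumours apart from HET_early_2 (106). Spib, a transcription factor of B cells, was not low in them, with 4087, 4936 and 6197. In the same tumours Cd79a was at 517, 3755 and 103 and Cd79b at 2902, 7029 and 2737, beside medians of 4579 and 5065 over the 18 tumours other than HET_early_2. Both chains were thus low in HET_late_1 and WT_late_1, Cd79a by more, and not in HET_late_2.

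The same 3 tumours had the highest levels of the coreceptor genes Cd4 and Cd8b1, which are listed as T cell markers. Cd4 was at 2234, 2358 and 5375, against 42.4 to 1230.1 in the other 16, and Cd8b1 at 1614, 3847 and 2411, against 2.67 to 165. Of the T cell receptor genes, Cd3e was at 37.5, 108 and 7.38 and Cd3g at 81.9, 285 and 15.7 in them, against 131 and 298 in WT_late_2, where Cd8b1 was at 69.3. Both were higher in HET_late_2 than in every other tumour but WT_late_2, and far lower in WT_late_1. These tumours were picked after their values were seen, so no test was made.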
